A study of Danio rerio with 34 samples.

Results

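The cytosolic ribosomal protein genes encode the protein part of the ribosome, the particle that translates every cytosolic mRNA. They were followed here in zebrafish (Danio rerio, strain AB) embryos across the first hours of development, in their RNA level and in the structure of their RNA. Members were chosen by name: every RefSeq transcript whose zebrafish gene symbol was rpl or rps followed by a digit, or rplp0, rplp1, rplp2 or rpsa, without the rps6k kinases. The rule found 88 transcripts of 82 genes, among 14038 transcripts that any of the files listed. Of these, 51 transcripts of 47 genes carry names of the large (60S) subunit and 37 transcripts of 35 genes carry names of the small (40S) subunit. A single transcript was listed for 76 of the genes and 2 transcripts for the other 6. The symbol rplp2l, also in the rule, matched no transcript.

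A ribosome is built from rRNA and 1 copy or a few copies of each ribosomal protein, so cells make the proteins in matched amounts. In vertebrates most of their mRNAs are short and abundant and begin with a run of pyrimidines, through which the kinase complex mTORC1 and the RNA-binding protein LARP1 set how well they are translated and how long they last. A fish egg carries a large maternal store of ribosomes, and the embryo starts to transcribe its own genes at the maternal-to-zygotic transition, which falls between 2 and 4 hpf (hours post fertilization).

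Poly(A) RNA-seq was made from control embryos at 2, 4 and 6 hpf and from elavl1a morphants at 4 and 6 hpf, with 2 libraries per group. The morphants were injected with a morpholino against the start codon of elavl1a, which encodes an RNA-binding protein of the Hu family that binds U-rich sequence. The labels describe the controls as normal embryos, and the study's methods describe a control morpholino. A morpholino of this kind blocks translation, so the elavl1a RNA does not check the labels, and no protein level was analysed here. The knockdown was verified by western blot in the study. The study reported that elavl1a morphants were moderately late in reaching sphere and markedly late in gastrulation. Morphants and controls of equal age in hpf may therefore differ in stage, and the part of this in their differences was not tested. RNA structure was measured by icSHAPE in poly(A)-selected RNA of wild-type embryos at 0, 0.4, 1, 2, 4 and 6 hpf and of elavl1a morphants at 4 and 6 hpf. In this assay the reagent NAI-N3 modifies flexible nucleotides, a modified nucleotide stops reverse transcription, and libraries treated with the solvent DMSO give the background. All samples were pools of whole embryos. A difference in RNA per cell, in the share of cells that express a gene, and in the length of the poly(A) tail on which selection rests cannot be told apart in such data.

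The RNA-seq libraries held between 61776396 and 104388477 uniquely mapped reads. Each value is the RPKM of the deposited tables, reads per transcript length and library size, so levels can be set side by side between genes. Tests used edgeR's quasi-likelihood fit of the unique read counts of 9945 transcripts whose mean over the 10 libraries reached 1 RPKM, scaled by library totals, with Benjamini-Hochberg adjustment over all of them and an adjusted p under 0.05 as the threshold. Of the 88 members 86 were tested. The second listed transcripts of rpl6 (NM_001003844) and rps24 (NM_201216) were too low. Below, ± is the standard error of a log2 change from the fit, with n = 2 libraries in each group.

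Ribosomal protein mRNAs took up a growing part of the poly(A) RNA of control embryos. The members together held 1.82 and 1.84% of the unique reads in the control libraries at 2 hpf, 3.52 and 3.58% at 4 hpf, and 5.94 and 5.99% at 6 hpf. The morphant libraries lay lower, at 2.81 and 2.89% at 4 hpf and 3.02 and 3.03% at 6 hpf. The groups did not overlap at either time. The median tested member stood at 295 and 299 RPKM at 2 hpf, 608 and 611 at 4 hpf, and 1145 and 1151 at 6 hpf in controls, while the median of all tested transcripts went from 21.7 and 21.5 to 17.6 and 17.5 and then to 10.9 and 10.9 RPKM. In the morphants the median member was at 469.997 and 481 RPKM at 4 hpf and at 602 and 606 RPKM at 6 hpf.

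**Figure D1:**
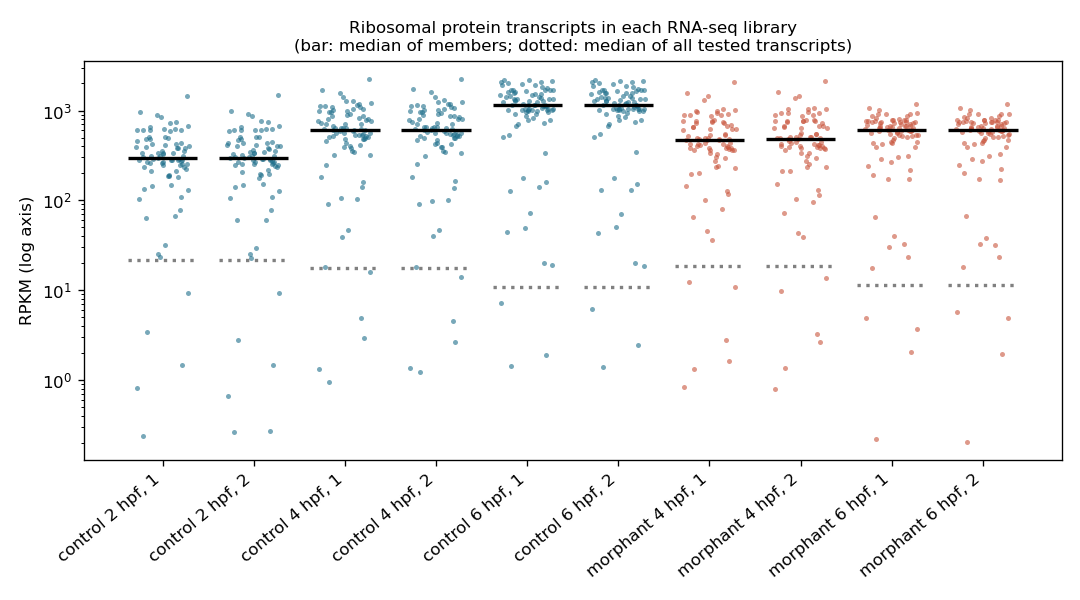
RPKM (log axis) of the ribosomal protein transcripts, 1 point each, in the 10 RNA-seq libraries; bars are medians of the members and dotted bars medians of all tested transcripts. The median member rises from 295 and 299 RPKM at 2 hpf to 1145 and 1151 RPKM at 6 hpf in controls and reaches 602 and 606 RPKM in morphants at 6 hpf.

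The levels of the members came closer together between 4 and 6 hpf, but not between 2 and 4 hpf. Among the 76 genes with a single transcript, the upper quartile of RPKM was 1.93 and 1.90 times the lower quartile at 2 hpf, 1.94 and 1.93 times at 4 hpf, and 1.57 and 1.56 times at 6 hpf in controls. The same ratio was 1.97 and 1.95 in morphants at 4 hpf and 1.46 and 1.48 at 6 hpf. The highest member in the control libraries at 2 and 4 hpf and in all morphant libraries was rpl12, a protein at the base of the stalk of the large subunit, with 1461 and 1484 RPKM at 2 hpf. At 6 hpf the highest in controls was rps14, which sits on the platform of the small subunit, with 2193 and 2178 RPKM. Across 75 members of single-transcript genes with a mean of at least 10 RPKM, the level at 2 hpf and the change from 4 to 6 hpf, both in log2, ran against each other (Pearson r = -0.56, Spearman rho = -0.65, across genes, given as a description). The 2 measures come from different libraries of the same series, and genes are not independent replicates.

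From 2 to 4 hpf ribosomal protein RNA rose in control embryos relative to the library total. Of 86 tested members 85 were higher at 4 hpf and 1 was lower, where 28.2% of all tested transcripts were higher and 55.0% lower. The median change was 0.95 on the log2 scale (1.93-fold), with quartiles of 0.83 and 1.14, beside a median of -0.23 over all transcripts. The large and the small subunit moved alike, with medians of 0.93 over 50 transcripts and 0.96 over 36, and 34 members rose by more than 2-fold, where 11.5% of all transcripts did. Scaling by edgeR's TMM factors or by DESeq2's size factors, which centre the bulk of transcripts near 0, changed the sign of no member and moved the split over all transcripts from 2808 higher and 5473 lower to 4150 and 3843 with TMM and 4334 and 3429 with DESeq2.

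Among the strongest rises was rps27l, a paralog of rps27 that in mammals is a target of p53, from 25.3 and 25.4 to 106 and 98.1 RPKM (2.08 ± 0.05, adjusted p = 3.3e-19). The large-subunit gene rpl30 rose from 258 and 253 to 678 and 661 RPKM (2.65-fold). At the other end of the members that rose stood rpl5b, whose protein binds the 5S rRNA together with Rpl11, at 727 and 758 and then 1031 and 1040.2 RPKM (0.49 ± 0.02). Close to it were rpl7l1, a paralog of rpl7 (0.58 ± 0.03), and rpl27a (0.60 ± 0.04).

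The proteins of the stalk, which recruits translation factors to the large subunit, belonged to the members that rose throughout. The RPKM of rplp0 was 215 and 216 at 2 hpf, 532 and 542 at 4 hpf, and 1540.2 and 1577 at 6 hpf. That of rplp1 was 304 and 303, then 704 and 705, then 2029 and 2041. The third stalk gene, rplp2, was the lowest of the 3 stalk genes in every library, with 77.1 and 78.1, 142 and 137, and 334 and 343. From 2 to 6 hpf the log2 changes were 2.86 ± 0.02 for rplp0 (7.26-fold), 2.75 ± 0.02 for rplp1 (6.73-fold) and 2.15 ± 0.04 for rplp2 (4.43-fold), with adjusted p of 1.1e-29, 2.7e-29 and 2.8e-22. Over these hours 85 of the 86 members were higher and 1 was lower, where 29.9% of all transcripts were higher and 65.5% lower, and the median member rose 3.47-fold. A rise of more than 2-fold was seen for 78 members and for 19.6% of all transcripts, and a fall of that size for 1 member and for 49.0%.

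From 4 to 6 hpf the control embryos showed a further rise. Of the 86 members 81 were higher, 2 were lower and 3 did not pass the test, where 30.1% of all transcripts were higher and 63.0% lower. The median change was 0.81 (1.75-fold) for the members and -0.64 for all transcripts, and all 86 members lay above the median of all transcripts. More than 2-fold rises were found for 31 members and for 14.4% of all transcripts. The median was 0.81 in each subunit, with 35 small-subunit and 46 large-subunit transcripts higher. With TMM and DESeq2 scaling 85 members were higher and none lower, and the split over all transcripts moved from 2994 higher and 6267 lower to 4382 and 4712 with TMM and to 4788 and 4226 with DESeq2. The 2 intervals share the control libraries at 4 hpf, so an error in those libraries enters both with opposite sign.

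Among the members with the strongest rises in this interval, rpl35a, a large-subunit protein, went from 357 and 358 to 1165 and 1169.6 RPKM (1.70 ± 0.02, adjusted p = 4.8e-24), and rps26l, a paralog of the small-subunit gene rps26, from 319.9 and 332 to 1029 and 1052 RPKM (1.67 ± 0.03, adjusted p = 2.8e-22). The small-subunit gene rps15a rose from 605 and 596 to 1772 and 1726 RPKM (1.53 ± 0.02). The values of rplp0 and rplp1, given above, correspond to 1.53 ± 0.02 and 1.52 ± 0.02. Some members hardly moved. The 4 and 6 hpf levels were 2245 and 2255 against 2132 and 2153 RPKM for rpl12 (-0.08 ± 0.01, adjusted p = 9.7e-06), and 160.2 and 164 against 159 and 151 for rpl7l1 (-0.07 ± 0.03, adjusted p = 0.024). These are the 2 members called lower, and their sign turned under TMM and DESeq2 scaling, as did that of rpl6, which was not called. Small rises were called for rpl3, which lies at the peptidyl transferase center, with 991 and 1001 against 1052 and 1071 RPKM (0.08 ± 0.02), for rps9 (0.11 ± 0.02) and for rpl5b (0.18 ± 0.02).

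**Figure D2:**
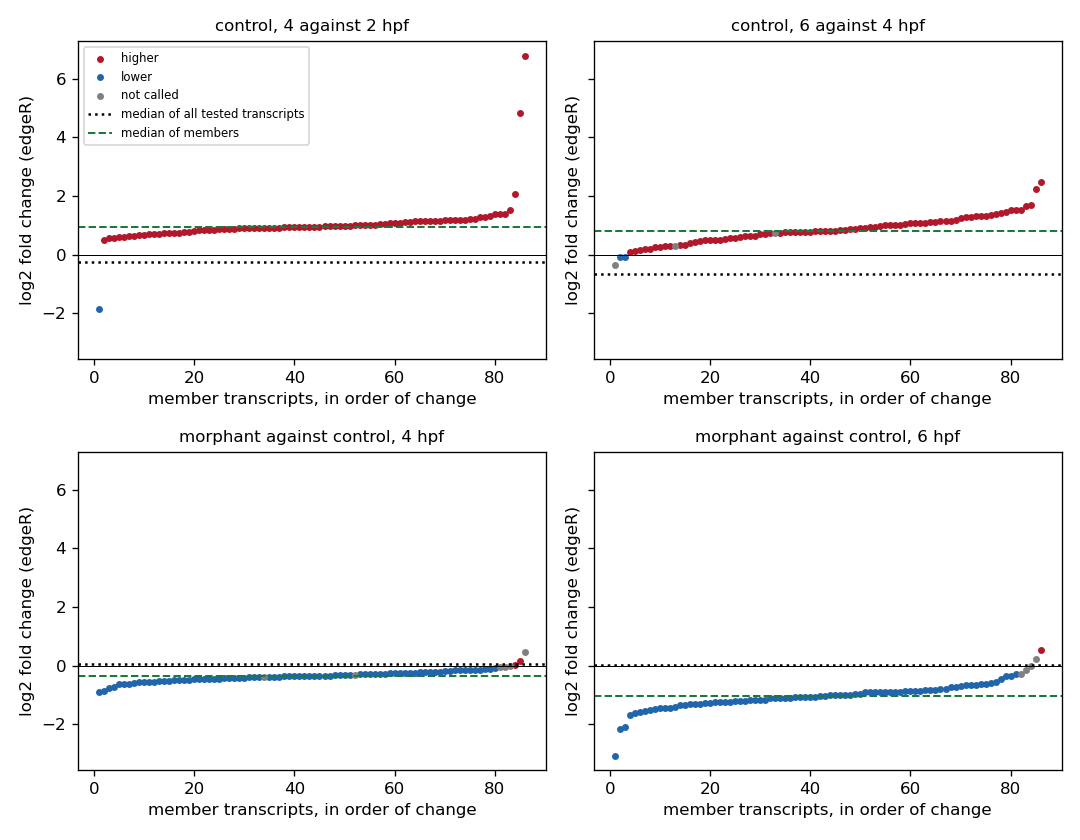
Log2 changes of the 86 tested members from the edgeR fit, each panel in order of change, in the control intervals from 2 to 4 and from 4 to 6 hpf and in morphants against controls at 4 and 6 hpf. Dashed lines mark the member medians (0.95, 0.81, -0.35 and -1.02) and dotted lines the medians of all tested transcripts (-0.23, -0.64, 0.07 and 0.01).

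At 4 hpf ribosomal protein RNA was somewhat lower in elavl1a morphants than in controls. Of the 86 members 78 were lower, 2 were higher and 6 did not pass the test, where 22.9% of all transcripts were lower and 39.5% higher. The median change was -0.35 (1.27-fold lower) beside 0.07 for all transcripts, and no member differed by 2-fold or more, where 1.45% of all transcripts were higher and 2.27% lower by over 2-fold. The subunits had medians of -0.36 (small) and -0.34 (large). The gene of a small-subunit protein near the mRNA entry, rps2, had 594 and 598 RPKM in controls and 327 and 334 in morphants (-0.86 ± 0.02, adjusted p = 1.4e-17). The stalk gene rplp1 had 704 and 705 RPKM in controls and 418 and 422 in morphants (-0.75 ± 0.02, adjusted p = 1.4e-17), while its partner rplp2 differed little, with 142 and 137 against 126 and 129.6 RPKM (-0.14 ± 0.04, adjusted p = 0.0042). The large-subunit genes rpl35a and rpl10a each changed by -0.62 ± 0.02. Of the 2 members called higher, a transcript of rpl22l1 (NM_001045335, 0.16 ± 0.07, adjusted p = 0.041) is named here. Neither was called under TMM or DESeq2 scaling, where 80 and 81 members were lower, and the sign of 1 member turned. The split over all transcripts moved from 3933 higher and 2278 lower to 2977 and 3076 with TMM and to 2573 and 3163 with DESeq2.

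The morphant libraries at 4 hpf also held more of the maternal and less of the zygotic marker RNAs. The summed RPKM of 5 maternal egg RNAs fell in controls from 5252 and 5346 at 2 hpf to 2817 and 2822 at 4 hpf and stood at 3356 and 3375 in morphants at 4 hpf. That of 5 zygotic genes was 236 and 234 in controls and 160.1 and 159 in morphants. Among the maternal RNAs zar1 went the other way, with 35.8 and 34.2 in controls and 27.8 and 29.6 in morphants. All listed genes of both sets were found, and their part in the difference of the ribosomal protein RNAs was not tested. At 6 hpf the sums were 293 and 299.9 against 224 and 234 for the maternal RNAs and 751 and 739.7 against 729 and 738 for the zygotic genes. Most of this maternal sum was h1m, with 244 and 246 against 183 and 191. The near-equal zygotic sums join opposite changes. In morphants cdx4 (229 and 224 against 152 and 152) and gsc were lower. There tbxta (312 and 310 against 350 and 348), sox32 and mxtx2 were higher. Markers of the outer epithelium, the enveloping layer, were at 1003 and 992 against 627 and 628 RPKM at 4 hpf and at 6566 and 6556 against 5886 and 5844 at 6 hpf. Of these, krt18a.1 was higher in morphants at 6 hpf, with 1835 and 1818 against 2167 and 2147. Markers of the yolk syncytial layer were at 139 and 140.3 against 94.3 and 92.9 at 4 hpf. Most of that sum was mxtx2, also among the zygotic genes, with 125 and 127 against 89.7 and 89.4. At 6 hpf the sum was 284 and 296 against 347 and 343, but its genes went different ways. In morphants apoa1b was lower, with 221 and 230 against 107 and 106 RPKM. There hnf4a, mttp and mxtx2 were higher, hnf4a with 25.2 and 26.6 against 105 and 99.3.

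At 6 hpf the difference was larger, and the median member was 2.02-fold lower in morphants. Of the 86 members 81 were lower, 1 was higher and 4 did not pass the test, where 39.0% of all transcripts were lower and 40.6% higher. The median change was -1.02 beside 0.01 for all transcripts, and 47 members were lower by more than 2-fold, against 8.62% of all transcripts, and none was higher by as much, against 10.3%. The small and the large subunit had medians of -1.01 and -1.04. The sign of no member changed under TMM or DESeq2 scaling, which gave 82 lower members each. The split over all transcripts moved from 4040 higher and 3878 lower to 3620 and 4286 with TMM and to 3408 and 4375 with DESeq2.

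Members of the large subunit were among those far below control. The gene rpl26 had 2062 and 2096 RPKM in controls and 668 and 678 in morphants (-1.63 ± 0.02, 3.09-fold lower, adjusted p = 2.4e-22). Its neighbour in this order, rpl27a, had 866 and 874 against 271 and 275 RPKM (-1.68 ± 0.04, 3.19-fold lower, adjusted p = 3.2e-19). In neither did the libraries of the groups overlap, but how many of all transcripts share this was not counted. The 2 transcripts of rpl29 changed by -2.17 ± 0.19 and -2.10 ± 0.08.

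Other members named for their role were lower by differing amounts. The stalk gene rplp0 had 1540.2 and 1577 RPKM in controls and 665 and 658 in morphants (-1.23 ± 0.02), rps19, the gene most often mutated in Diamond-Blackfan anaemia in humans, had 1482 and 1535 against 619.6 and 617 (-1.29 ± 0.02), and rps3, at the mRNA entry of the small subunit, had 1235 and 1251 against 588 and 578 (-1.09 ± 0.02). The genes whose products form a complex with the 5S rRNA that in mammals restrains the p53 regulator Mdm2 changed by -1.10 ± 0.02 (rpl11), -1.06 ± 0.02 (rpl5a) and -0.90 ± 0.02 (rpl5b). The small-subunit genes rps14 and rpsa had 2193 and 2178 against 1055 and 1065 RPKM (-1.04 ± 0.02) and 1234 and 1291 against 770.2 and 751 RPKM (-0.73 ± 0.02). The ubiquitin fusion gene rps27a changed by -0.89 ± 0.02 and rpl36a by -1.44 ± 0.02. Smaller falls were found for rps6, the classical substrate of S6 kinase, with 914 and 943 against 709.9 and 736 RPKM (-0.36 ± 0.03, adjusted p = 6.8e-11) and for rps9 (-0.30 ± 0.02). The p53-target paralog rps27l had 177 and 177 RPKM in controls and 175 and 174 in morphants (-0.02 ± 0.04, adjusted p = 0.61).

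The only member called higher was rpl7l1. Its RPKM was 159 and 151 in controls and 218 and 226 in morphants at 6 hpf (0.52 ± 0.03, 1.44-fold higher, adjusted p = 9.0e-13), after 160.2 and 164 against 117 and 114 at 4 hpf (-0.49 ± 0.03, adjusted p = 2.2e-11). In yeast the counterpart of this protein acts in ribosome assembly and is not part of the finished large subunit.

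All these comparisons share libraries with each other. The difference between the morphant effects at the 2 times was tested as an interaction term in the same fit. It was below 0 for 78 of the 86 members, above 0 for 3, and not called for 5, where 38.8% of all transcripts were below and 35.3% above. The median was -0.66 beside -0.04 over all transcripts. The same term states that the morphants' change from 4 to 6 hpf was smaller than that of controls. In morphants the median member changed by 0.14 over this interval, where all transcripts had a median of -0.65, and 50 members were called higher and 27 lower, where 32.1% and 61.4% of all transcripts were. Both counts depend on the scaling: with TMM 72 members were higher and 7 lower, with DESeq2 79 and 5, while 79 of the 86 lay above the median of all transcripts. The split over all transcripts moved too, from 3193 higher and 6106 lower to 4412 and 4771 with TMM and to 4736 and 4362 with DESeq2.

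Among the well-covered members, the interaction was far below 0 for rpl27a (-1.62 ± 0.05) and rpl26 (-1.48 ± 0.03, adjusted p = 5.6e-19). For rpl26 this reflects 826 and 865 RPKM in controls and 747 and 778 in morphants at 4 hpf, against 2062 and 2096 and against 668 and 678 at 6 hpf. The change of rpl26 within morphants was -0.19 with library totals and turned to 0.38 with TMM and 0.54 with DESeq2. The 3 members above 0 were rpl7l1 (1.01 ± 0.04, adjusted p = 1.2e-14), a transcript of rps12 (NM_200046, 0.79 ± 0.29, adjusted p = 0.020) and rps6 (0.11 ± 0.04, adjusted p = 0.011). In morphants rps6 rose from 241 and 257 to 709.9 and 736 RPKM. For rps23, at the decoding center (0.00 ± 0.04), and rps27l (-0.00 ± 0.06) the morphant effect was not found to differ between the times. Across 75 members of single-transcript genes, the log2 changes at 4 and at 6 hpf showed a Pearson r of -0.06 (Spearman rho -0.06), as a description across genes.

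**Figure D3:**
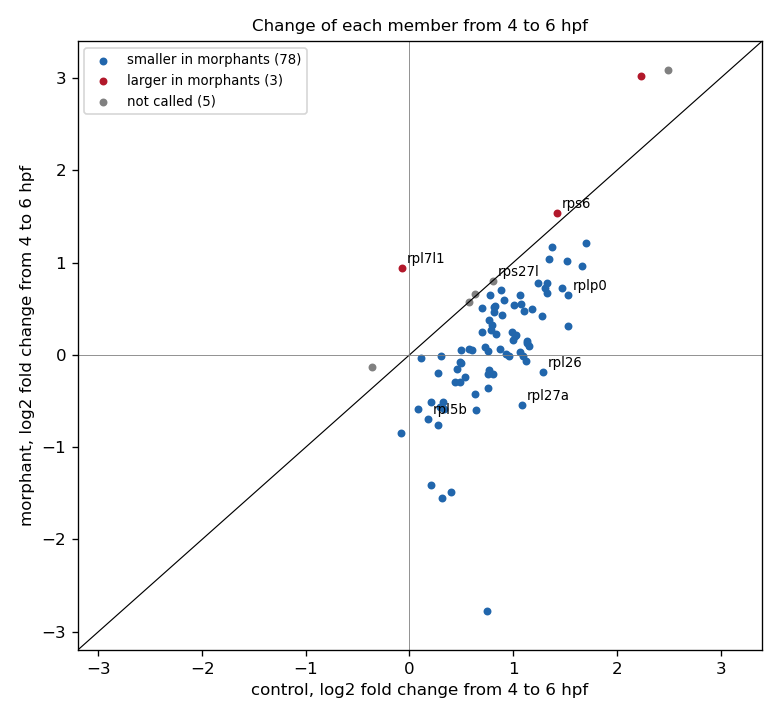
Log2 change from 4 to 6 hpf of each tested member in morphants (vertical axis) against that in controls (horizontal axis), from the edgeR fit, with the line of equal change; colours give the call of the interaction term. Of the 86 members 78 lie below the line and are called smaller in morphants, 3 are called larger, and rpl26, at -0.19 in morphants (0.38 with TMM and 0.54 with DESeq2 scaling) and 1.29 in controls, lies well below the line.

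Paralogs of the same ribosomal protein changed their proportions. Of the summed RPKM of rpl5a and rpl5b, rpl5a held 12.5 and 12.2% at 2 hpf, 15.0 and 15.0% at 4 hpf, and 30.6 and 29.7% at 6 hpf in controls. In morphants it held 12.7 and 12.8% at 4 hpf and 27.8 and 28.1% at 6 hpf. The share of the less abundant copy rose in both conditions. The level of rpl5a rose in controls from 183 and 184 to 511 and 506 RPKM (1.47 ± 0.02) and in morphants from 145 and 152 to 243 and 246. Of rps26 and rps26l, the latter held 31.1 and 30.6%, then 37.4 and 38.1%, then 58.3 and 58.8% in controls, and 37.4 and 37.6% and then 59.2 and 58.6% in morphants. Here the shares of the 2 conditions lay within 1 percentage point of each other at both times, although the level of each gene was lower in morphants at 6 hpf (-1.20 ± 0.03 for rps26 and -1.18 ± 0.03 for rps26l).

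The pairs of rpl7 with rpl7l1 and of rps27.2 with rps27l behaved differently between conditions. Of rpl7 and rpl7l1, the latter fell from 37.0 and 38.04% at 2 hpf to 28.6 and 29.5% at 4 hpf and 13.4 and 13.2% at 6 hpf in controls, but stood at 29.99 and 29.4% and at 27.7 and 28.5% in morphants. Of rps27l and rps27.2, rps27l held 6.71 and 6.61%, 16.0 and 14.7%, and 15.5 and 14.9% in controls, and 16.9 and 16.2% and then 28.3 and 28.4% in morphants. The shares at 6 hpf did not overlap between the conditions in either pair, and neither did those of rpl5a. The gene rps27.1 held 39.99 and 40.8% of the sum of rps27.1 and rps27.2 at 2 hpf and between 43.2 and 51.3% in the later libraries of both conditions. The large-subunit gene rpl22 had 144 and 149, 317 and 314, and 678 and 681 RPKM in controls and 201 and 213 and then 286 and 292 in morphants (-0.61 ± 0.03 and -1.24 ± 0.03), and its relative rpl22l1 is among the genes with 2 transcripts. Fewer than 1% of the counted reads of 79 of the 88 members mapped to more than 1 place. Reads were counted after a filter on mapping quality, which can remove reads that match 2 copies equally well. The shares thus rest on the reads kept, and how many were lost for each copy is unknown. The transcript pairs of rpl6, rpl17, rpl22l1, rpl29, rps12 and rps24 are different, since their isoforms share most of their sequence and only the unique reads were counted. Their values are uncertain, among them the 0.239 and 0.265 RPKM at 2 hpf and 18.0 and 17.9 at 4 hpf of the rpl22l1 transcript NR_027625, which had the largest rise of all members (6.78 ± 0.19). The rps12 transcript NM_200046 had 0 and 18 unique reads at 2 hpf and 212 and 162 at 4 hpf, while the other, NM_001282177, went from 62.9 and 60.3 to 92.0 and 90.2 RPKM (0.58 ± 0.05). Of rpl17 the transcript NM_001319650 had 1.32 and 1.38 RPKM at 4 hpf and 7.11 and 6.12 at 6 hpf in controls (2.49 ± 0.23), and 0.841 and 0.803 in morphants at 4 hpf (-0.88 ± 0.30, adjusted p = 0.015). The filter was a mean over all 10 libraries. For the rpl22l1, rps12 and rpl17 transcripts with these large rises it rests mainly on the groups where they were high. Their rises are therefore given as a description only, though they are part of the counts above.

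**Figure D4:**
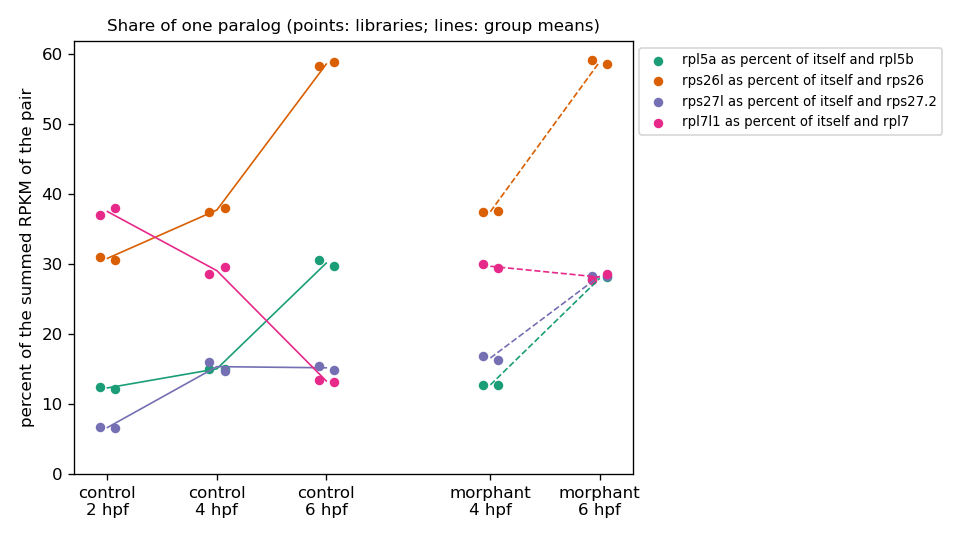
Share in percent of a paralog in the summed RPKM of its pair, with points for libraries and lines through group means, solid for controls at 2, 4 and 6 hpf and dashed for morphants at 4 and 6 hpf. The share of rps26l is 58.3 and 58.8% in controls and 59.2 and 58.6% in morphants at 6 hpf, while that of rpl7l1 falls to 13.4 and 13.2% in controls and stays at 27.7 and 28.5% in morphants.

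Other genes of the translation machinery were counted in the same way. The ribosomal protein gene rack1, a scaffold on the small subunit, rose in both control intervals and was lower in morphants at both times. Its mean RPKM was 726, 1058 and 1130.3 in controls at 2, 4 and 6 hpf and 923 and 823 in morphants. The counts of the lists stand beside 28.2 and 30.1% of all transcripts higher and 55.0 and 63.0% lower in the control intervals, and 39.5 and 40.6% higher and 22.9 and 39.0% lower in morphants at 4 and 6 hpf. Of 23 other transcripts of the translation machinery whose mammalian counterparts start with a pyrimidine tract, which could not be looked up here, 18 were higher and 4 lower from 2 to 4 hpf (median 0.63), and 14 were higher and 9 lower from 4 to 6 hpf (median 0.41). In morphants 13 of them were lower and 4 higher at 4 hpf (median -0.20), and 12 were lower and 9 higher at 6 hpf (median -0.16), beside member medians of -0.35 and -1.02. The interaction was below 0 for 9 of these and above 0 for 9. Of 79 transcripts of ribosome assembly factors 28 were higher and 45 lower from 2 to 4 hpf (median -0.13). From 4 to 6 hpf 51 of these were higher and 27 lower (median 0.35). In morphants 18 were higher and 38 lower at 4 hpf (median -0.05), and 39 were higher and 35 lower at 6 hpf (median 0.06). Of 18 transcripts of the LARP1 and mTOR pathway 10 were higher and 8 lower from 2 to 4 hpf. In morphants 9 were higher and 1 lower at 4 hpf (median 0.11), and 7 were higher and 9 lower at 6 hpf (median -0.08).

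Of 72 transcripts for proteins of the mitochondrial ribosome 16 were higher and 45 lower from 4 to 6 hpf in controls (median -0.47). In morphants 14 were higher and 20 lower at 4 hpf (median -0.01), and 25 were higher and 28 lower at 6 hpf (median -0.04). Of 42 transcripts of proteasome subunits 21 were higher and 14 lower from 4 to 6 hpf (median 0.11). In morphants most of them were lower at 4 hpf, 27 against 3 higher (median -0.15), where 22.9% of all transcripts were lower. At 6 hpf 32 were higher and 4 lower (median 0.41). All 6 tested genes of the p53 response were higher in morphants at 6 hpf (median 0.81) and 4 were at 4 hpf (median 0.45), where 40.6 and 39.5% of all transcripts were. Among them the mean RPKM of cdkn1a, a cell cycle inhibitor, was 10.8 in controls and 24.9 in morphants at 4 hpf and 2.98 and 5.80 at 6 hpf, and that of mdm2 was 96.0 and 108 and then 54.6 and 81.3. No relation between these lists and the members was tested.

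The icSHAPE files gave a reactivity between 0 and 1 per nucleotide. A value of 0 is a nucleotide that was hardly modified, as in a base pair or in some cases under a protein, and 1 is a highly flexible nucleotide. The study found only very small differences in reactivity between sites bound by proteins and random positions. Replicates had been combined before deposit, so every stage is a single profile, with no replicate error and no test, and the number of reads behind a nucleotide is unknown. A transcript's mean was taken over its valued nucleotides and used where more than 50% of them had a value. That held for between 81 and 85 of the 87 members listed in each profile and for 3355 to 6460 of all transcripts.

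Ribosomal protein RNAs were less reactive than the typical transcript at every stage. The median member had a mean reactivity of 0.257, 0.299, 0.238, 0.215, 0.244 and 0.273 in wild type at 0, 0.4, 1, 2, 4 and 6 hpf, where the median of all transcripts was 0.297, 0.343, 0.277, 0.245, 0.289 and 0.291. At 0 hpf 79 of 82 members lay below the median of all transcripts, at 4 hpf 82 of 84, and at 6 hpf 63 of 85. The subunits were alike, at 0.258 (large) and 0.253 (small) at 0 hpf and 0.274 and 0.271 at 6 hpf. Transcripts outside the members with an RPKM at or above the members' lower quartile had medians of 0.306 at 0 hpf, 0.305 at 4 hpf and 0.305 at 6 hpf, and all transcripts of at most 1500 nt had 0.295, 0.284 and 0.290. Both of these sets lay above the members at each of these stages. The other transcripts of the translation machinery had medians of 0.269, 0.275 and 0.297 at 0, 4 and 6 hpf, also above the members. Of these, 11 of 14, 11 of 17 and 8 of 18 lay below the median of all transcripts. A reactivity below the typical transcript at 0 and 4 hpf was thus not particular to the members. Nucleotides at exactly 0 made up 13.1% of the members' nucleotides at 0 hpf and 19.5% at 4 hpf, beside 8.23 and 13.2% over all transcripts, and 10.1% beside 10.98% at 6 hpf. With those nucleotides left out the members still lay below all transcripts in every profile, by 0.009 at 1 hpf and by up to 0.039 at 0.4 hpf.

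The order among the members was similar from stage to stage, with a Pearson r between neighbouring stages of 0.63, 0.61, 0.78, 0.81 and 0.75 (across transcripts, as a description). At the low end were the stalk genes rplp2, with 0.185, 0.222, 0.171, 0.159, 0.183 and 0.193 over the 6 wild-type stages, and rplp0, with 0.182, 0.230, 0.183, 0.161, 0.192 and 0.214. Lower still, on average over the stages, were single isoforms of rps12 (NM_200046) and rpl22l1 (NR_027625), at 0.174 and 0.177. The third stalk gene, rplp1, averaged 0.228, above members outside the stalk such as rps28 (0.198) and rps3a (0.211). At the high end were the large-subunit gene rpl34, with 0.317, 0.351, 0.302, 0.280, 0.314 and 0.305, and the small-subunit gene rps7, with 0.2998, 0.349, 0.2996, 0.257, 0.284 and 0.328. The assembly-related rpl7l1, valued at 4 stages, averaged 0.307. The spread between these extremes was larger than the change of most members between stages.

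**Figure D5:**
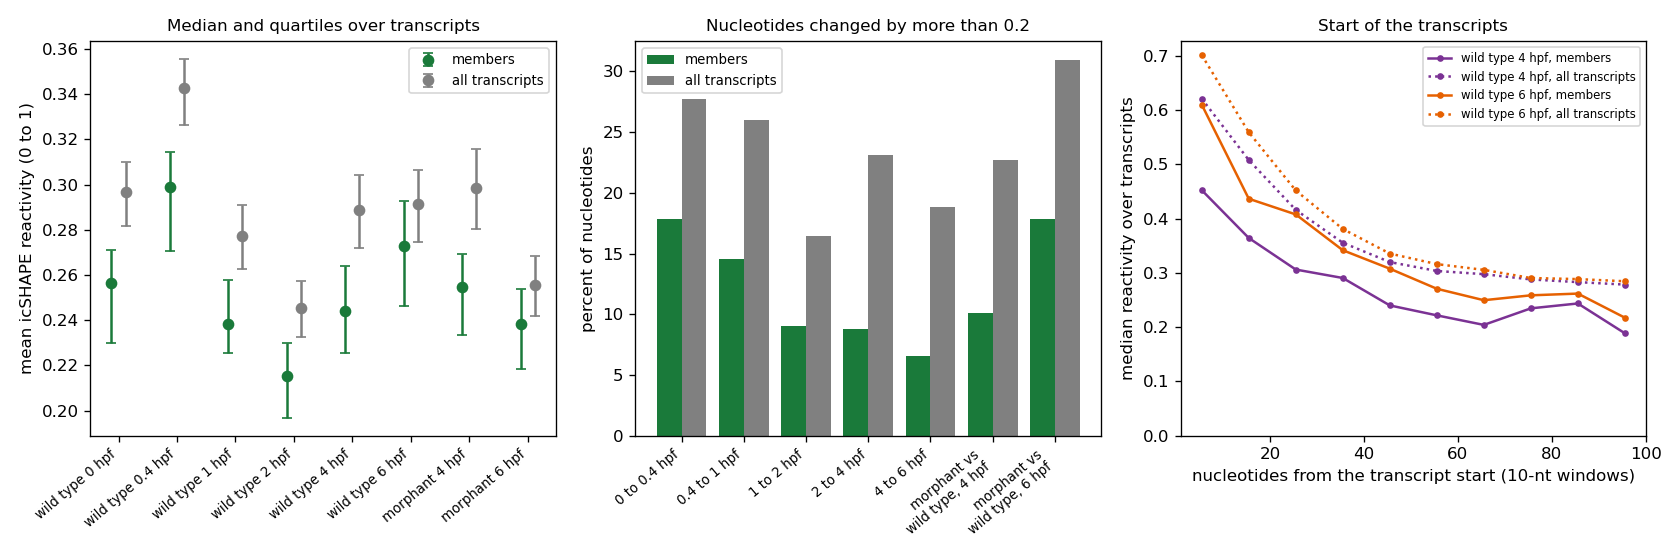
Left, median and quartiles over transcripts of the mean icSHAPE reactivity (0 to 1; axis not from 0) of the members and of all transcripts in each pooled profile. Middle, percent of nucleotides whose reactivity changed by more than 0.2 in each interval; right, median reactivity along nucleotides 1 to 100 in wild type at 4 and 6 hpf. The members lie below all transcripts in every profile, by 0.045 at 4 hpf and by 0.018 at 6 hpf.

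Members followed the embryo-wide shifts of reactivity up to 2 hpf, rose by less than most transcripts from 2 to 4 hpf, and rose from 4 to 6 hpf while the median transcript did not. From 0 to 0.4 hpf the median member rose by 0.046 and the median transcript by 0.047, with 77 of 81 members and 98.0% of all transcripts risen. From 0.4 to 1 hpf and from 1 to 2 hpf both fell, by 0.059 and 0.023 for the members and by 0.065 and 0.028 for all, and 3 of 80 and 5 of 81 members rose, beside 1.01 and 1.78% of all. From 2 to 4 hpf 80 of 83 members and 99.4% of all transcripts rose, the members by less (0.030 against 0.047), and only 10 of the 83 lay above the median change. From 4 to 6 hpf the median transcript did not move (0.0003, with 51.0% risen), while 79 of 84 members rose, the median by 0.027. In that interval 78 of the 84 lay above the median change and 66 above the upper quartile of all transcripts. Transcripts outside the members with a similar or higher RPKM had a median change of 0.004, with 51 of 73 risen, and 17 of the other transcripts of the translation machinery one of 0.015, with 14 risen. The RNA level of the members rose in the same interval, and across 83 members the change in reactivity and the log2 change of RPKM had a Pearson r of 0.15 (Spearman rho 0.16, across genes, as a description). The members' icSHAPE RPKM rose too, by a median factor of 2.69 over 75 members, beside 0.698 over all transcripts. Their nucleotides at exactly 0 fell from 19.5 to 10.1%, beside 13.2 to 10.98% over all transcripts. With zeros left out, the members' gap to all transcripts narrowed less between these stages (values at the end). The part of depth in the rise was not tested.

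Between stages fewer nucleotides changed in ribosomal protein RNAs than in others. A difference of more than 0.2 was found at 17.8, 14.6, 9.03, 8.80 and 6.54% of the members' nucleotides over the 5 successive intervals, and at 27.7, 26.0, 16.4, 23.1 and 18.8% of the nucleotides of all transcripts. Transcripts of similar or higher RPKM gave 21.9, 19.3, 8.95, 14.6 and 7.10%, so in the intervals from 1 to 2 and from 4 to 6 hpf the members were close to other abundant mRNAs. The largest rise of a member from 4 to 6 hpf was that of rps28, a small-subunit protein, from 0.177 to 0.3001, and it was followed by a transcript of rpl17 and by rps21, from 0.260 to 0.325. The largest fall was that of rpl13a, whose protein in mammals also acts outside the ribosome, from 0.234 to 0.201, and rps27.2 also fell, from 0.274 to 0.250.

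In the morphants the reactivity of the members was close to that of wild type at 4 hpf and lower at 6 hpf. The median member had 0.255 in morphants at 4 hpf beside 0.244 in wild type, and 0.238 beside 0.273 at 6 hpf, where all transcripts had 0.299 beside 0.289 and 0.255 beside 0.291. Per transcript, 64 of 83 members were higher in morphants at 4 hpf, where 60.8% of all transcripts were, and the median change was 0.009 beside 0.004 over all. At 6 hpf 7 of 84 were higher, where 2.25% of all transcripts were, with a median change of -0.031 beside -0.038. These shifts of the members were of the size of the embryo-wide shift. The comparison is with wild type, not with the controls of RNA-seq. Wild type is listed with 1 DMSO and 1 NAI-N3 sample per stage, and the morphants with 2 of each. Effects of the injection, of the knockdown and of any separate processing cannot be told apart. A difference of more than 0.2 was found at 10.1% of the members' nucleotides at 4 hpf and 17.9% at 6 hpf, beside 22.7 and 30.9% over all transcripts. Transcripts outside the members with a similar or higher RPKM gave 14.6 and 21.7%, nearer to the members. The largest difference was that of rps28, at 0.3001 in wild type and 0.072 in morphants at 6 hpf, followed by rpl24, at 0.268 and 0.166, and rpl26, at 0.340 and 0.255. The mean of rpl24 also jumped between wild-type stages, with 0.272, 0.167, 0.277, 0.174, 0.242 and 0.268. On the other side stood rpl13a, at 0.201 in wild type and 0.228 in morphants.

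At 4 and 6 hpf reactivity along the members was highest at the start of the transcript. In wild type at 4 hpf the median over members was 0.453 at nucleotides 1 to 10 of the RefSeq transcript, 0.240 at nucleotides 41 to 50 and 0.189 at nucleotides 91 to 100, from 64, 76 and 80 members with values there. All transcripts gave 0.621, 0.320 and 0.279. At 6 hpf the members had 0.610, 0.308 and 0.218 and all transcripts 0.702, 0.336 and 0.285. At nucleotides 1 to 10, transcripts of at most 1500 nt had 0.577 at 4 hpf and 0.702 at 6 hpf, and of all transcripts 1430 had values there at 4 hpf and 736 at 6 hpf, so that these medians are not over the same transcripts. The morphants at 6 hpf gave 0.430, 0.213 and 0.208 for the members and 0.459, 0.283 and 0.257 for all. Divided into 5 equal lengths, the median member had 0.278 in the part nearest the start at 4 hpf and between 0.231 and 0.243 elsewhere. At 6 hpf in wild type it had 0.316 against 0.251 to 0.270. Transcripts of at most 1500 nt gave 0.301 against 0.275 to 0.283 at 4 hpf and 0.320 against 0.269 to 0.290 at 6 hpf. A higher start was thus not particular to the members. In this first part the members exceeded all transcripts at 6 hpf, 0.316 beside 0.307 in wild type and 0.272 beside 0.263 in morphants. Against transcripts of at most 1500 nt (0.320 and 0.276) they lay below, as they did against all transcripts in the other profiles. The first valued nucleotide of a transcript depends on its depth, and the start in RefSeq may differ from the start used in the embryo.

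Some short windows within the members kept a low or a high reactivity through the stages. Of 4095 windows of 10 nt with at least 8 valued nucleotides at all 6 wild-type stages, in 75 transcripts of single-transcript genes, 241 stayed under 0.1 at every stage and 289 stayed over 0.4. In 1601 windows the values differed by less than 0.1 over all stages. From 4 to 6 hpf 2975 of the windows (72.6%) rose. Windows were counted in the members only, so no share over all transcripts stands beside these counts. In rplp0 a window over 0.4 and a window under 0.1 at every stage lay side by side. Nucleotides 21 to 30 had 0.818, 0.734, 0.701, 0.474, 0.486 and 0.761 over the stages. That window stayed high but was not fixed, with a range of 0.344 and 1 of the largest rises from 4 to 6 hpf. Nucleotides 31 to 40 were at or below 0.010 at every stage. The window at nucleotides 281 to 290 of rpl5a remained between 0.741 and 0.783, and those at nucleotides 131 to 140 of rpl27a, 151 to 160 of rpsa, which encodes a small-subunit protein also known as the laminin receptor, and 301 to 310 of rps23 were at or below 0.010 at every stage.

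The windows with the largest rises from 4 to 6 hpf were in the large-subunit gene rpl35 and next to each other. At its nucleotides 41 to 50 the values were 0.392, 0.390, 0.278, 0.308, 0.282 and 0.639, with 0.337 and 0.461 in morphants at 4 and 6 hpf, and at nucleotides 21 to 30 they went from 0.293 to 0.639, with 0.500 and 0.298 in morphants. The 2 windows between and after them rose from 0.242 to 0.562 and from 0.183 to 0.487. Over its whole length rpl35 went the other way, from 0.255 to 0.232. Among the largest falls were nucleotides 411 to 420 of rps27.2, from 0.565 to 0.327, and 261 to 270 of rpl13a, from 0.692 to 0.477. The largest rises from 0 to 0.4 hpf lay at nucleotides 11 to 20 of rps23, with 0.346, 0.710 and 0.211 at 0, 0.4 and 1 hpf, of rpl37, with 0.505, 0.850 and 0.262, and of rps27.1, with 0.217, 0.560 and 0.131, so that in all 3 the value at 0.4 hpf stood above both neighbours. So did the medians at nucleotides 11 to 20 over members (0.359, 0.507 and 0.274) and over all transcripts (0.468, 0.648 and 0.401). This peak was thus not particular to the 3 genes. These windows were chosen as extremes of single profiles, and nothing shows how far a replicate would have differed.

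The icSHAPE libraries also carry a level per transcript, and it did not follow RNA-seq in every interval. Among 75 members of single-transcript genes the RPKM of the icSHAPE profiles changed from 2 to 4 hpf by a median factor of 0.888, with 23 of 75 above 1, where RNA-seq of control embryos gave a factor of 1.94 with all 75 above 1. From 4 to 6 hpf the factors were 2.69, with all 75 above 1, and 1.77, with 73 above 1. Over all transcripts the icSHAPE factors were 0.964 and 0.698. The summed icSHAPE RPKM of the members was 36849, 25606, 27907, 30379.7, 27154 and 65239 in wild type at 0, 0.4, 1, 2, 4 and 6 hpf, and 20988 and 50545 in morphants at 4 and 6 hpf. The members' sums were thus lower in morphants than in wild type at both times, though with 1 pooled profile per group there is no test. From 4 to 6 hpf these sums rose by a similar proportion in both conditions, whereas in RNA-seq the rise was smaller in morphants. The median icSHAPE RPKM of all listed transcripts was 33.3 and 25.5 in wild type at 4 and 6 hpf and 38.1 and 45.5 in morphants. Those medians are over differing lists, of 7937, 6996, 6912 and 4303 transcripts. The assays differ in embryos, fragmentation, mapping and scaling, and at 4 hpf the icSHAPE value gave no increase over 2 hpf.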

How the data were processed

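Values are those the authors deposited. For RNA-seq, reads were trimmed with cutadapt and Trimmomatic, mapped to zebrafish RefSeq transcripts with Bowtie2, filtered on mapping quality and counted. The deposited tables hold unique read counts and RPKM per transcript (listed from 0.1 RPKM, unlisted taken as 0). For icSHAPE, the authors combined replicates, subtracted the DMSO background and scaled within windows, and deposited 1 RPKM and reactivities (a fraction from 0 to 1) per transcript. Gene symbols came from a RefSeq gene table and matched 13760 of 14038 transcripts. The iCLIP files of the series were not used.

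Unique counts were fitted with edgeR 4.0.16 in R 4.3.3 (glmQLFit, all 5 groups in 1 fit, library totals, 9945 transcripts whose mean reached 1 RPKM, Benjamini-Hochberg). Since the labels do not say that libraries came from separate clutches, p-values measure the spread between libraries, which may be technical. Alternatives were TMM, DESeq2 1.42.0, no filter, limma 3.58.1 on log2(RPKM + 1), a replicate block, each library left out, members of single-transcript genes, and for icSHAPE another coverage limit, background, summary or threshold. The fit was tested on simulated data. Named were, per comparison, the 5 highest and 5 lowest members past the threshold, a set of members chosen by role or as paralogs, and for icSHAPE the extremes of level and change; rps23, rpl35 and other members named for a window or a difference near 0 were added after their values were seen. Symbols rpl3l, rpl10l, rpl39l and rps19bp1 of that set matched nothing. Some members and other genes are included in counts and medians but not reported individually here. Members and lists were chosen with earlier results of these data known.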

Additional observations from a re-analysis of the deposited data

Results flagged for a closer look

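The morphant effect differed between 4 and 6 hpf by the interaction term of edgeR for 78 members in the lower and 3 in the higher direction. Among the members named in the text, this log2 difference was -1.88 and -1.87 for the rpl29 transcripts NM_001243178 and NM_001003434, -1.62 for rpl27a, -0.14 for rps9 and -0.13 for rpsa. It was 0.11 for rps6, 0.79 for the rps12 transcript NM_200046 and 1.01 for rpl7l1. With 2 libraries per group no search for outlying samples was made.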

How the results depend on the processing

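The differences between the member median and the median of all transcripts kept their sign under all alternatives, while the median of all transcripts itself turned from -0.23 to 0.014 (TMM) and 0.065 (DESeq2) from 2 to 4 hpf, from -0.64 to 0.097 (DESeq2) from 4 to 6 hpf, from 0.07 to -0.0001 (TMM) and -0.021 (DESeq2) in morphants at 4 hpf, and from 0.01 to -0.066 (TMM) and -0.093 (DESeq2) at 6 hpf. The members' median log2 change minus that of all transcripts was 1.19, 1.45, -0.42, -1.02 and -0.62 for the 2 control intervals, the morphant comparisons at 4 and 6 hpf and their difference. Without the filter it was 1.10, 1.33 and -0.563 for the first, second and last, and with limma 1.11 and 1.36 for the first and second. The morphant value at 6 hpf was -1.04 with single-transcript genes only, and it ranged from -1.035 to -1.022 when 1 library was left out. The 2 members lower from 4 to 6 hpf became 0 with TMM and with DESeq2, and 1 or 2 with a library left out (1 without control 4 hpf library 2 or control 6 hpf library 2). The 2 members higher in morphants at 4 hpf became 0 with TMM, with DESeq2 and without the filter, 1 among single-transcript genes, and 0 to 2 with a library left out (0 without any library of 4 hpf). The 3 members above 0 in the interaction ranged from 1 (without morphant 4 hpf library 1) to 3. A replicate block gave 85, 81, 2, 1 and 3 members higher and 1, 2, 77, 81 and 78 lower in these 5 comparisons. Same-numbered libraries shared little deviation (correlations from -0.043 to 0.075). Weak correlations cannot show whether the numbers mark a pairing.

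The members' reactivity minus that of all transcripts was -0.040, -0.044, -0.039, -0.030, -0.045 and -0.018 at the wild-type stages and -0.044 and -0.017 in the morphants. From the median nucleotide it was -0.066, -0.071, -0.062, -0.049, -0.067, -0.033, -0.069 and -0.032, and with zeros left out -0.035, -0.039, -0.0092, -0.014, -0.030, -0.023, -0.022 and -0.033. Against transcripts of at most 1500 nt it was -0.038 at 0.4, -0.026 at 2 and -0.040 at 4 hpf, and -0.040 in morphants at 4 hpf. With more than 80% of nucleotides valued it was -0.023 at 6 hpf and -0.049 in morphants at 4 hpf. Nucleotides changed by more than 0.3 were 7.51, 5.52, 3.38, 2.83 and 1.84% over the intervals and 3.98 and 8.75% in the morphants, and centred differences gave 16.1, 12.2, 8.73 and 7.85% over the first 4 intervals and 16.96% in morphants at 6 hpf. The shares of members with an iCLIP peak were not run, since peaks could not be assigned to transcripts here. Of all values recomputed, 73 of 80 median changes, 69 and 76 of 80 counts (higher and lower), 18 of 40 reactivity differences and 9 of 21 nucleotide shares moved by less than the spread between library pairings, a factor of 1.5, the standard error over members or the 95% Wilson interval. Depth limits the isoforms of rpl6, rpl17 and rps12 most.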
